A study of Mus musculus with 18 samples.

Results

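The comparison described here set the cells with the lowest reporter signal in cultures given a Mylk-shRNA vector against the cells with the lowest reporter signal in cultures given a scramble-shRNA vector. The members were the 3 libraries labelled Mylk-shRNA, mCherry-negative and the 3 labelled scramble-shRNA, mCherry-negative, which are 6 of the 18 libraries of the series. All kidneys came from wild-type CD1 mice, an outbred stock, at embryonic day 14, and were exposed for 4 hours to AAV2, an adeno-associated virus used to deliver genes. The vector carried the red fluorescent protein mCherry under the ubiquitous CAG promoter, followed by 2 shRNA cassettes in a mir30 backbone, so that any transduced cell type could make both. The Mylk cassettes were aimed at separate stretches of Mylk, and the scramble cassettes held rearranged Rock1 and Rock2 target sequences. The explants were kept for 72 hours in a gel of collagen I and matrigel, pooled by condition, digested to single cells and sorted. The negative fraction was the dimmest 50% of cells and the positive fraction the brightest 25%. The number of the replicate is the litter, and each litter gave 1 library for every pairing of a vector with a fraction, 6 groups in all.

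Mylk encodes myosin light chain kinase, which phosphorylates the regulatory light chain of myosin II and so raises contractility in smooth muscle and in non-muscle cells. The fetal kidney grows by exchange between the ureteric bud, a branching epithelium, the nephron progenitors that cap its tips, the interstitial stroma around them and the endothelium of the growing vessels. Cells that escaped the vector in a treated culture keep their own Mylk but share the medium, the matrix and the neighbours of transduced cells. No vector transcript was measured in the table used here, so whether the dim cells were free of the vector was not tested.

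The 6 libraries held 3890052 to 12170830 counts, with litter 3 the shallowest in both groups (3890052 in scramble-shRNA and 4519242 in Mylk-shRNA). The first principal component of the 6 libraries held 58.3% of the variance and set litter 3 apart from litters 1 and 2. The Mylk-shRNA library of litter 3 stood farthest out. It had 33921 genes with a count, against 27198 to 29539 in the other 5, and mitochondrial rRNA took 4.53% of its counts, against 0.919% to 3.17%. Litter was kept as a term in the main edgeR tests, and the values of each litter are given with the results.

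No gene passed the test of Mylk-shRNA against scramble-shRNA in the negative fraction. Of 16544 genes tested with edgeR's quasi-likelihood test, 0 (0%) had a Benjamini-Hochberg adjusted p under 0.05, and the smallest adjusted p was 0.235. At an unadjusted p under 0.05 there were 1050 genes, 6.35% of those tested, of which 629 (3.8%) had higher and 421 (2.54%) lower values in Mylk-shRNA. DESeq2 called 1 gene, Mir503hg. The log2 fold changes below, with their standard errors, are therefore descriptions of 3 pairs of libraries, and an unadjusted p is given only to order genes. CPM is a gene's count as a share of all counts of its library, on a scale common to all libraries.

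Mylk itself did not differ detectably between the groups. In Mylk-shRNA it stood at 75.5, 59.1 and 86.3 CPM in litters 1, 2 and 3, and in scramble-shRNA at 73.7, 57.8 and 75.8 CPM. The Mylk-shRNA value was the higher one in each litter, but the groups overlapped. The fitted level was 106% of scramble (95% interval 89.4 to 126%, log2 fold change 0.09 ± 0.12 SE, adjusted p 0.954), and an exact 2-sided permutation test of the means, which does not use the litters, gave p = 0.6, where 3 against 3 libraries can reach no less than 0.1. Without the Mylk-shRNA library of litter 3 the log2 fold change was -0.026. Rock1, whose product drives actomyosin contraction, was at 90.4% (76.3 to 107%) of scramble, and its paralog Rock2 at 106% (89 to 125%). In the bright cells of the same cultures Mylk was more abundant, with 169, 187 and 168 CPM under Mylk-shRNA and 211, 181 and 198 CPM under scramble-shRNA. There Mylk-shRNA was lower in litters 1 and 3 and higher in litter 2. No lower level of Mylk was thus detected in bright cells (edgeR log2 fold change -0.18 ± 0.11, unadjusted p 0.123, adjusted p 0.977). The difference between the fractions in the Mylk-shRNA effect on Mylk was 0.27 (unadjusted p 0.116, adjusted p 0.93).

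**Figure D1:**
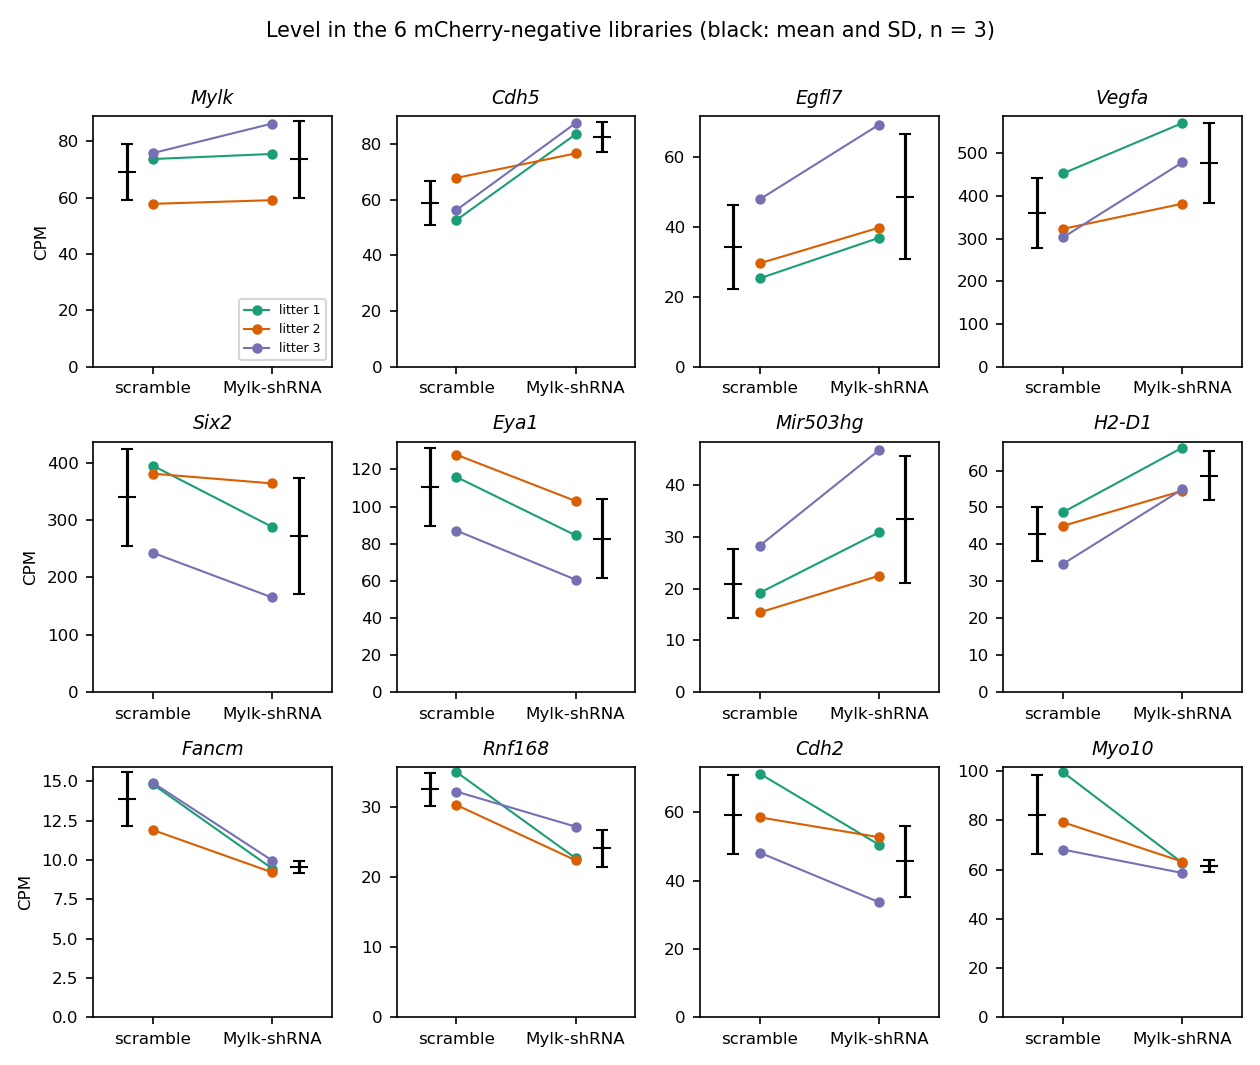
Level of 12 genes in CPM in the 6 mCherry-negative libraries, with each line joining the scramble-shRNA and Mylk-shRNA library of a litter and black bars giving mean and SD (n = 3). Mylk is nearly level in each litter (57.8 to 75.8 CPM against 59.1 to 86.3), while the lines of Egfl7, Vegfa, Mir503hg and H2-D1 all slope upward and those of Eya1, Fancm and Cdh2 all slope downward.

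Genes of the endothelium, the lining of blood vessels, had the highest median of the gene lists examined. All lists were chosen with earlier results of these data known. Their counts, here and below, are thus descriptions beside the shares of all genes and not tests. Of 30 endothelial marker genes tested, 28 had a positive log2 fold change, where 51.8% of all genes did. The median was 0.398, against 0.008 over all genes. At an unadjusted p under 0.05 there were 17 with higher values and 0 with lower, against 3.8% and 2.54% of all genes. Higher values in all 3 litters were found for 20 of the 30 (14.5% of all genes), and 9 of the 30 had groups that did not overlap with Mylk-shRNA higher (2.44% of all genes). With CPM scaled by TMM factors 8 of the 30 did not overlap, against 2.56%. None passed the adjusted test (smallest adjusted p 0.493).

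Cdh5, the cadherin of endothelial junctions, stood at 83.6, 76.7 and 87.6 CPM in Mylk-shRNA and at 52.7, 67.9 and 56.3 CPM in scramble-shRNA. Every Mylk-shRNA library lay above every scramble-shRNA library, with the smallest gap in litter 2 (log2 fold change 0.50 ± 0.16, unadjusted p 0.00682, adjusted p 0.64). Egfl7, a secreted protein made by endothelial cells, stood at 36.9, 39.8 and 69.3 CPM against 25.3, 29.6 and 47.9 CPM. It was higher within each litter by a like amount (0.51 ± 0.13, p 0.000579, adjusted p 0.493), although litter 3 of scramble-shRNA lay above litters 1 and 2 of Mylk-shRNA. Vwf, the clotting factor stored in endothelial granules, was scarce, at 0.971, 1.41 and 6.86 CPM against 0.55, 0.493 and 2.31 CPM, and its fold change of 1.35 ± 0.36 leans on litter 3. Icam2, an endothelial adhesion molecule, and Nos3, the endothelial nitric oxide synthase, also had groups that did not overlap, with log2 fold changes of 0.50 ± 0.15 and 0.76 ± 0.25. The general endothelial markers Pecam1 (0.40 ± 0.25), Kdr, the main VEGF receptor (0.37 ± 0.18), and Emcn (0.21 ± 0.11) had positive values that missed an unadjusted p of 0.05. Calcrl, a receptor subunit for adrenomedullin, was nearly level at 34.4, 33.8 and 32.7 CPM against 35.7, 31.7 and 30.6 CPM.

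The transcription factors of this lineage lay on the same side. Erg, an ETS factor, was at 5.3, 4.93 and 6.53 CPM in Mylk-shRNA and 2.84, 3.25 and 4.11 CPM in scramble-shRNA, with no overlap (0.75 ± 0.24, p 0.00504). The 3 SoxF factors Sox7, Sox17 and Sox18 each had a log2 fold change of 0.53, with standard errors of 0.21, 0.19 and 0.15. Of 16 endothelial transcription factors tested, 14 had positive values (51.8% of all genes) and 6 had higher values at an unadjusted p under 0.05 (3.8% of all genes), a number that was 2 without the Mylk-shRNA library of litter 1 and 2 without litter as a term. Among the 6 were Klf2, which responds to flow (0.35 ± 0.11), and Lmo2 (0.36 ± 0.15). Of 14 arterial and tip cell genes 12 were positive and 5 had an unadjusted p under 0.05, against the same shares of all genes. The 5 became 3 without the Mylk-shRNA library of litter 1, 9 without that of litter 2, 3 without litter as a term and 2 without litter 3. They included Dll4, the Notch ligand of tip and arterial cells, at 25.4, 24.1 and 33.6 CPM against 16.4, 23.8 and 16.2 CPM, and Gja4, an arterial connexin (0.50 ± 0.20). Of 6 venous and capillary genes tested 3 were positive, and Gpihbp1, which anchors lipoprotein lipase in capillaries, was the 1 with an unadjusted p under 0.05 (0.49 ± 0.18). The lists share some members.

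The size of the endothelial difference varied with the litter. The median log2 ratio over the 30 genes was 0.57 in litter 1, 0.11 in litter 2 and 0.54 in litter 3. The summed level of the 30 genes was 860, 860 and 1042 CPM in Mylk-shRNA and 658, 802 and 804 CPM in scramble-shRNA and the groups did not overlap. Without litter 3 the median was 0.392 and 13 genes had an unadjusted p under 0.05. The number of such genes was 10 without the Mylk-shRNA library of litter 3, 3 without that of litter 1, and 4 without litter as a term, with medians of 0.317, 0.322 and 0.446. Xist, the RNA of the inactive X chromosome and so a measure of the female share of a pool, was at 235, 141 and 320 CPM in Mylk-shRNA and 101, 142 and 376 CPM in scramble-shRNA, which differed most in litter 1, and its part in the result was not tested. Messenger RNAs of the mitochondrial genome, whose share moves with RNA quality and cell state, lay on the same side as the endothelial genes. Of 13 tested 12 were positive with a median of 0.244, 8 were higher in all 3 litters (14.5% of all genes) and 0 had an unadjusted p under 0.05. Their litter medians were 0.56, 0.16 and 0.09, and their summed level was 20342, 14333 and 46164 CPM in Mylk-shRNA against 14131, 12373 and 44374 CPM in scramble-shRNA. Their part in the endothelial and other results was not tested. In these bulk libraries more endothelial cells and more endothelial RNA per cell cannot be told apart.

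**Figure D2:**
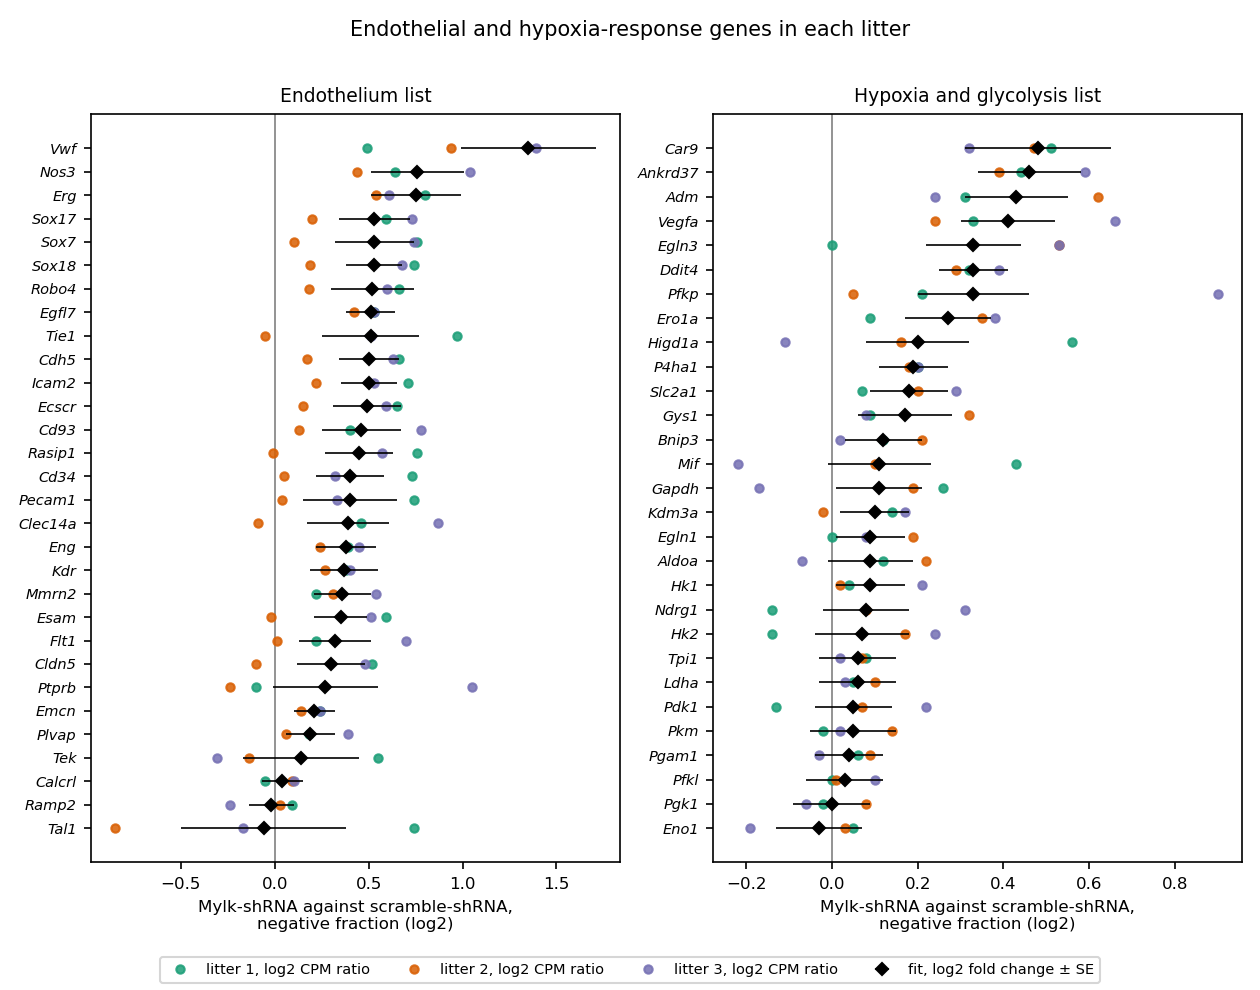
Log2 ratio of Mylk-shRNA to scramble-shRNA in the negative fraction for the endothelial genes (left) and the hypoxia and glycolysis genes (right), with coloured points for the ratio of CPM (0.5 CPM added) in each litter and black diamonds for the fitted log2 fold change with its standard error. Of 30 endothelial genes, 28 diamonds lie right of 0 and the points of litter 2 lie mostly nearest to 0, and of 29 hypoxia genes 28 diamonds lie right of 0 with most of them near it.

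ETS factors such as Erg bind a GGAA core, and the sequence before the start of endothelial genes was searched for it. The letters CAGGAA and CCGGAA were looked for on both strands in the 250 bases before each gene start of RefSeq (GRCm38.p6). Promoters were on hand for 15 of the 30 endothelial genes, and 11 (73.3%) held a match before at least 1 start, where 38.2% of 27025 genes did. Tek and Calcrl, which had no unadjusted p under 0.05, also held 2 matches each, so a match did not depend on a small p. The list was chosen as markers of the endothelium, so the matches say nothing of the differences seen here. Egfl7 (chr2:26580833-26581082, plus strand) and Rasip1 (chr7:45627287-45627536, plus strand), which encodes a Ras-interacting protein of forming vessels, are shown as the 2 members with the smallest p that held 2 matches, 5′ to 3′ with the matches in capitals.
Egfl7: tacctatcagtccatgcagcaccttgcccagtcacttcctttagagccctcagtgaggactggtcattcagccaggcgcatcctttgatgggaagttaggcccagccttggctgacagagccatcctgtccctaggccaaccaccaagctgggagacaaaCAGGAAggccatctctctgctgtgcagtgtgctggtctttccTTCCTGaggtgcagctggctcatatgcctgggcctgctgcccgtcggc
Rasip1: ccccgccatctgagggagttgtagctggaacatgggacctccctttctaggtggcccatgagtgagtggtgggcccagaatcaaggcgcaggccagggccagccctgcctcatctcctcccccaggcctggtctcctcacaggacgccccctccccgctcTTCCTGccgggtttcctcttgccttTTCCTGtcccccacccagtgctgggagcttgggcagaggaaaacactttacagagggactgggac
A match is a string of letters and not a measured site, and promoters of like base composition were not compared.

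Genes that cells switch on at low oxygen were the second group with nearly all values on the positive side. Of 29 hypoxia and glycolysis genes, 28 had a positive log2 fold change, but the median was small at 0.106. An unadjusted p under 0.05 with higher values was found for 9 of the 29 (3.8% of all genes) and with lower values for 0 (2.54%), and 15 of the 29 were higher in all 3 litters (14.5%). Vegfa, the main growth factor for blood vessels and itself induced by low oxygen, stood at 571, 382 and 479 CPM in Mylk-shRNA and 453, 323 and 303 CPM in scramble-shRNA. It was higher in each litter, although the groups overlapped (0.41 ± 0.11, p 0.00114, adjusted p 0.493). Ankrd37, a direct target of the hypoxia-inducible factors, was at 203, 175 and 68.2 CPM against 149, 134 and 45 CPM (0.46 ± 0.12, p 0.00118). Ddit4, an inhibitor of mTORC1, was at 281, 241 and 106 CPM against 224, 197 and 80.7 CPM (0.33 ± 0.08, p 0.000557). Both had their lowest values in litter 3 of each group. Adm, which encodes the peptide adrenomedullin (0.43 ± 0.12), Car9, a carbonic anhydrase (0.48 ± 0.17), and Egln3, a prolyl hydroxylase (0.33 ± 0.11), completed the members with the largest values.

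Of the 20 genes tested of VEGF, angiopoietin and apelin signalling, which include some endothelial and hypoxia genes, 17 had positive values and 5 had higher values at an unadjusted p under 0.05 (51.8% and 3.8% of all genes). The 5 became 3 without the scramble-shRNA library of litter 2 and 1 without litter as a term. The other ligands among the 5 were Pgf, a VEGF family member, at 27.2, 30.1 and 32.1 CPM against 24.6, 24.7 and 21.3 CPM, and Vegfc, which acts on lymphatic endothelium (0.38 ± 0.17). Pgf was higher in every Mylk-shRNA library than in any scramble-shRNA library, while Vegfc was higher in litters 1 and 2 only. The receptor partner Ramp3 was at 30.3, 26.5 and 47.8 CPM against 22.7, 19.8 and 33.7 CPM. Leaving out the scramble-shRNA library of litter 2 lowered the number of hypoxia genes at an unadjusted p under 0.05 from 9 to 4, and leaving out the litter term lowered it to 1.

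The hypoxia-inducible factors bind RCGTG, and the letters ACGTG and GCGTG were looked for in the same windows. All 9 hypoxia genes with an unadjusted p under 0.05 and 25 of the 28 with a promoter on hand (89.3%) held a match, where 41.5% of all genes did. The list was chosen for the response to low oxygen, and members above that p, such as Bnip3 and Ldha, held matches too. The matches therefore say nothing of the differences seen here. As for the ETS letters, a match is not a measured site, and promoters of like base composition were not compared. Ankrd37 (chr8:45999851-46000100, minus strand) and Adm (chr7:110627407-110627656, plus strand) are shown as a gene with 4 matches, the most among the 9, and as a vessel-active member with 2. As above, the matches are in capitals.
Ankrd37: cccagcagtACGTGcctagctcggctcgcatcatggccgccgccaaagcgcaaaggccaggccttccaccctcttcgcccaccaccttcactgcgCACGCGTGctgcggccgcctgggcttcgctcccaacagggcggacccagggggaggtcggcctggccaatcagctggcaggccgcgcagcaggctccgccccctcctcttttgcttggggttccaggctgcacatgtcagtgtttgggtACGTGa
Adm: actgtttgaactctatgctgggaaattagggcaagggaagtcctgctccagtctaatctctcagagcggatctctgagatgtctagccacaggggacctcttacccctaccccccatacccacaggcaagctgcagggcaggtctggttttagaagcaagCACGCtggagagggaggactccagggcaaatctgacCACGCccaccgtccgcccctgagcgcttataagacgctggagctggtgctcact

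Nephron progenitor genes lay on the negative side. Of 19 such genes tested 17 had a negative log2 fold change, with a median of -0.224. An unadjusted p under 0.05 was found for 7 with lower values (2.54% of all genes) and 0 with higher values. Lower values in all 3 litters were found for 13 of the 19, against 13.7% of all genes, but only 1 of the 19 (Itga8) had groups that did not overlap, against 1.98% (2.39% and again 1 member with TMM scaling). Six2, the transcription factor that keeps these cells self-renewing, stood at 288, 364 and 165 CPM in Mylk-shRNA and 395, 381 and 243 CPM in scramble-shRNA. The difference was small in litter 2, and the levels of litter 3 were the lowest in both groups (-0.33 ± 0.15, p 0.0435, adjusted p 0.777). Eya1, a transcriptional cofactor that partners with Six2, was at 84.5, 103 and 60.6 CPM against 116, 128 and 87.1 CPM, lower in each litter (-0.41 ± 0.13, p 0.00441). Osr1, an early kidney factor (-0.42 ± 0.19), Sall1, a zinc finger factor (-0.28 ± 0.09), Spock2, a proteoglycan (-0.33 ± 0.10), and Itga8, the integrin that binds nephronectin on the bud (-0.22 ± 0.10), were likewise lower in each litter. Cited1, which marks the least differentiated progenitors, had -0.38 ± 0.21.

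The signal from progenitors to the ureteric bud tip runs from Gdnf to its receptors Ret and Gfra1 and on to the factors Etv4 and Etv5. Gdnf was at 80, 88.7 and 58.2 CPM in Mylk-shRNA and 96.5, 96 and 72 CPM in scramble-shRNA (-0.22 ± 0.10, p 0.0467). Gfra1, which is also made outside the bud, was at 59.9, 77.5 and 36.6 CPM against 98.3, 90.1 and 57.1 CPM, lower in each litter with overlap between groups (-0.49 ± 0.17, p 0.0123). Etv5 had -0.20 ± 0.09, Etv4 -0.27 ± 0.16 and Ret -0.26 ± 0.24. Of 13 tip genes tested 11 were negative, with a median of -0.200, and 2 (Gfra1 and Etv5) had lower values at an unadjusted p under 0.05 (2.54% of all genes). The 2 became 0 without the scramble-shRNA library of litter 1 and 0 without the Mylk-shRNA library of litter 3. Without litter as a term the number was 1.

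The median over the 19 progenitor genes was -0.27 in litter 1, -0.07 in litter 2 and -0.30 in litter 3. Their summed level was 2226, 2569 and 1518 CPM in Mylk-shRNA and 2772, 2733 and 1873 CPM in scramble-shRNA, lower in each litter with overlap between the groups. The median moved to -0.093 without the Mylk-shRNA library of litter 3. The 7 genes at an unadjusted p under 0.05 became 2 without litter as a term, 2 and 4 without the scramble-shRNA library of litter 1 or 2, and 3, 12 and 4 without the Mylk-shRNA library of litter 1, 2 or 3. Without litter 3 altogether they were 3, with a median of -0.161.

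**Figure D3:**
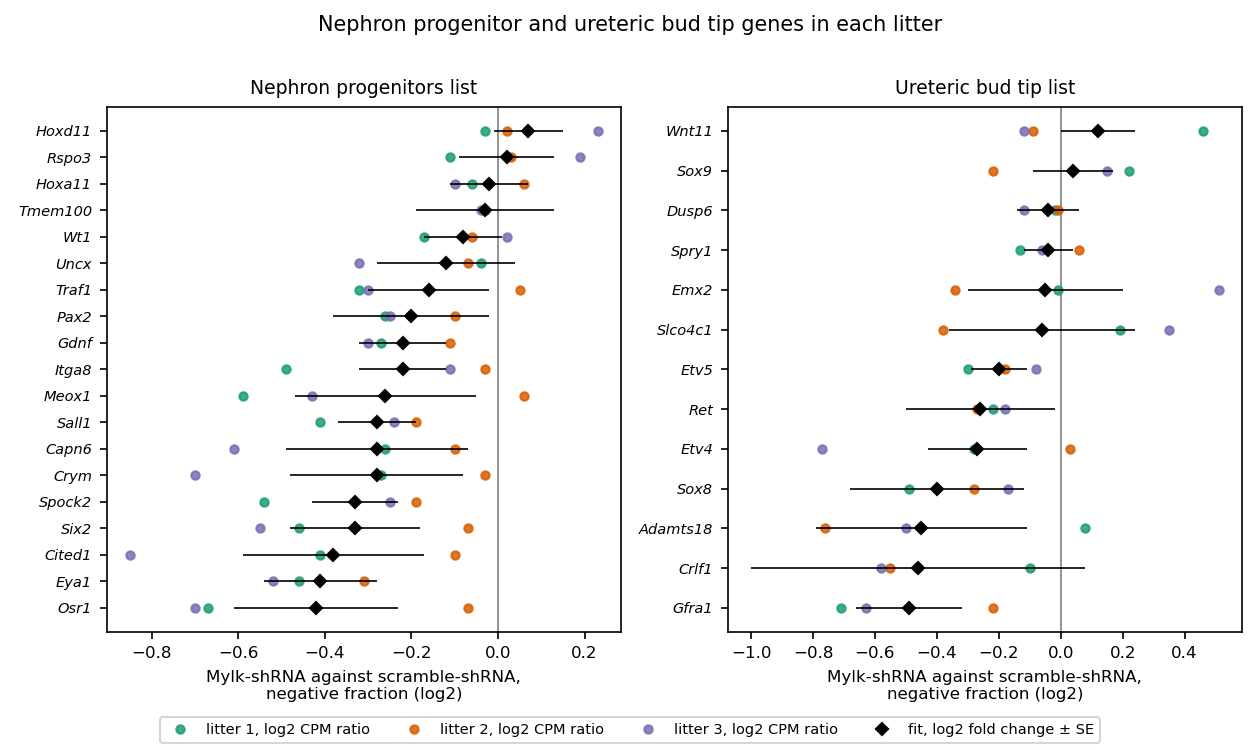
Log2 ratio of Mylk-shRNA to scramble-shRNA in the negative fraction for the nephron progenitor genes (left) and the ureteric bud tip genes (right), with coloured points for each litter's ratio of CPM and black diamonds for the fitted log2 fold change with its standard error. Of 19 progenitor diamonds 17 lie left of 0, and of 13 tip diamonds 11 do with the points of litter 2 often nearer to 0 in the progenitor genes.

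Genes of DNA replication had slightly lower values. Of 25 tested, 24 had a negative log2 fold change, with a median of -0.141 and litter medians of -0.16, -0.11 and -0.08. Mcm6, a subunit of the replicative helicase, was at 153, 165 and 107 CPM in Mylk-shRNA and 192, 174 and 133 CPM in scramble-shRNA (-0.23 ± 0.09). It was lower in each litter, as were Uhrf1, which guides maintenance of DNA methylation (-0.24 ± 0.09), and Fen1, a flap endonuclease (-0.24 ± 0.11). These 3 and Clspn, a checkpoint adaptor (-0.39 ± 0.16), were the 4 of 25 with an unadjusted p under 0.05 (2.54% of all genes), a number that ran from 1 to 7 when single libraries were left out and was 0 without litter as a term. Of 30 genes of mitosis 25 were negative, with a median of -0.087.

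Markers of the other cell types had medians on the positive side, several of which turned when 1 library was left out. Of 22 stromal genes 20 were positive, but the median was 0.086, and Foxd1, the factor of stromal progenitors, was at 120, 134 and 111 CPM against 145, 114 and 96.4 CPM. Its direction differed among the litters (0.05 ± 0.11). Of 18 smooth muscle, pericyte and renin cell genes 16 were positive with a median of 0.167, and 2 had higher values at an unadjusted p under 0.05 (3.8% of all genes). Without the Mylk-shRNA library of litter 3 the median was -0.002 and 9 of the 18 were positive. The 2 genes were Kcnj8, a potassium channel of pericytes, at 97.6, 132 and 129 CPM against 89, 95.2 and 120 CPM, and Smtn, a smooth muscle cytoskeletal protein (0.29 ± 0.13). Acta2, the smooth muscle actin, had 0.13 ± 0.33. Proximal tubule genes had a median of 0.169, podocyte genes of 0.055, early nephron genes of 0.044 and genes of the ureteric trunk and collecting duct of 0.081. The genes below an unadjusted p of 0.05 numbered 1 of 17, 0 of 12, 1 of 19 and 0 of 14, against 6.35% of all genes. Leaving out the Mylk-shRNA library of litter 1 turned the early nephron and trunk medians to -0.191 and -0.122, and leaving out the scramble-shRNA library of litter 2 or 1 took the proximal tubule median to -0.035 or 0.454. The summed level of 21 macrophage markers was 18.3, 16.3 and 30.1 CPM against 25.7, 15.9 and 16.3 CPM, low in both groups beside the 347 to 714 CPM of the bright cells of the same vectors. Its median was 0.270 with 11 of 21 positive and litter medians of -0.11, 0.01 and 0.68, and without the Mylk-shRNA library of litter 3 it was -0.178. Erythroid genes had a median of 0.236 with 7 of 9 positive and litter medians of 0.72, -0.30 and 0.00, and without the Mylk-shRNA library of litter 1 it was -0.309. With only the dim libraries fitted, 7 of these 9 passed the filter. The part of both cell types in the other results was not tested.

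**Figure D4:**
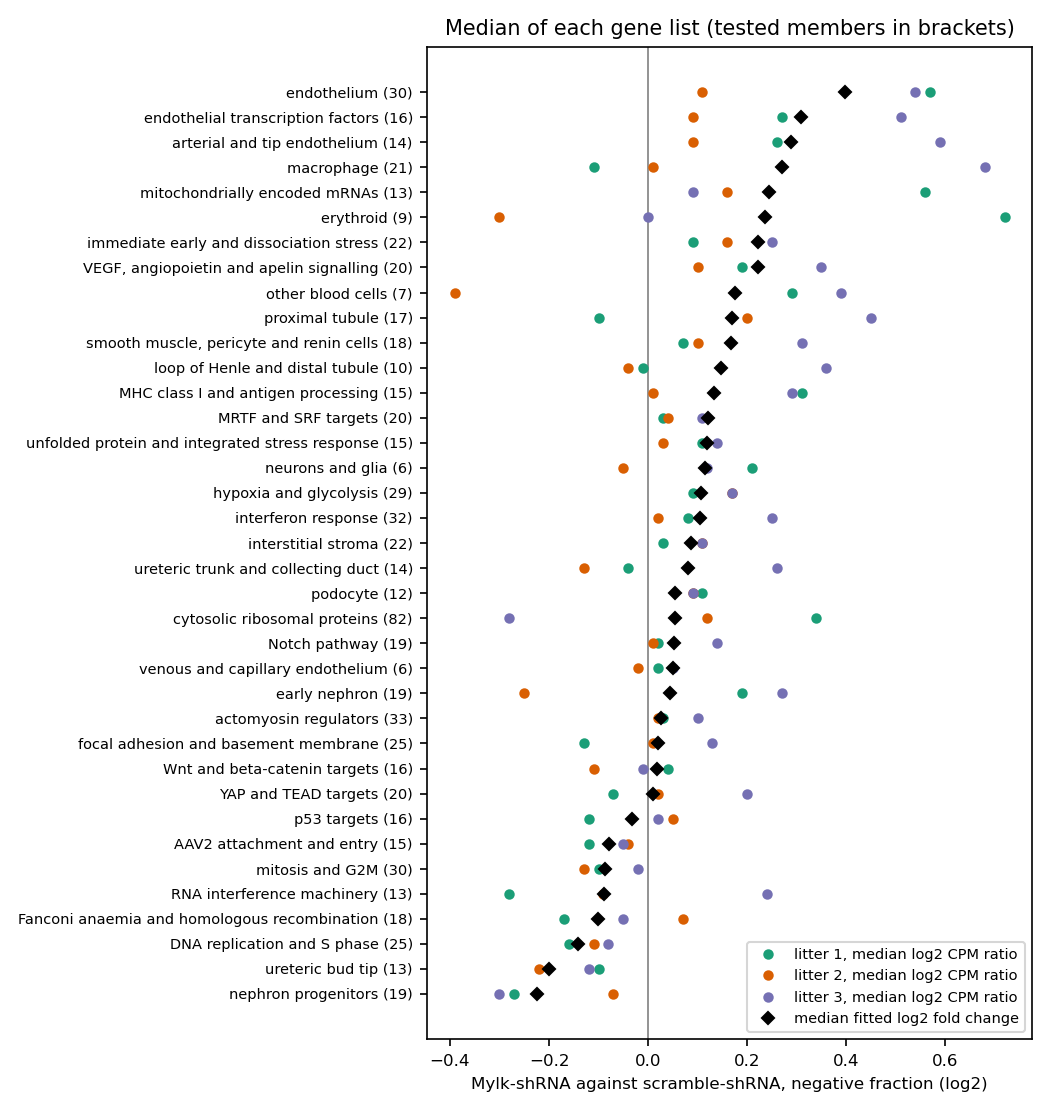
Median log2 ratio of Mylk-shRNA to scramble-shRNA in the negative fraction for each gene list with at least 5 tested members (number in brackets), without the sex-linked list. Coloured points stand for each litter and black diamonds for the median of the fitted log2 fold changes. The endothelium lies at the top with 0.398 and the nephron progenitors at the bottom with -0.224, and in the endothelium list litter 2 lies at 0.11 while litters 1 and 3 lie above 0.5.

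Class I major histocompatibility genes, which display peptides on the cell surface, had higher values in their main members. H2-D1 was at 66.2, 54.5 and 54.9 CPM in Mylk-shRNA and 48.7, 45 and 34.7 CPM in scramble-shRNA, with no overlap (0.44 ± 0.10, p 0.000165, adjusted p 0.493). H2-K1 was at 161, 141 and 143 CPM against 134, 122 and 104 CPM (0.30 ± 0.08, p 0.000999), and their shared light chain B2m at 232, 236 and 221 CPM against 171, 202 and 212 CPM (0.24 ± 0.11). Reads of H2-D1, H2-K1 and related class I genes may be shared, and how the counting treated such reads is not given in the sources used here. Of 15 members of the list tested 10 were positive, with a median of 0.133, and 5 had groups that did not overlap with Mylk-shRNA higher (2.44% of all genes). At an unadjusted p under 0.05 there were 4 with higher values (3.8% of all genes), the last being Psmb9, an immunoproteasome subunit with at most 1.11 CPM. This number was 2 without litter as a term and without the scramble-shRNA or the Mylk-shRNA library of litter 1. Of 32 interferon response genes 20 were positive and 1 (Bst2, 0.33 ± 0.12) had an unadjusted p under 0.05, a share near that of all genes.

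Immediate early genes, which also respond to the digestion of tissue, had a median of 0.223, with 19 of 22 positive and litter medians of 0.09, 0.16 and 0.25. The 4 with an unadjusted p under 0.05 (3.8% of all genes had higher values) were Ier3 (0.40 ± 0.13), Klf4 (0.37 ± 0.12), Dusp1 (0.28 ± 0.11) and Klf6 (0.27 ± 0.13). Their number was 0 without litter as a term, and it was 1 and 7 without the scramble-shRNA library of litter 1 or 3 and 8 and 2 without the Mylk-shRNA library of litter 1 or 3. Klf4 stood at 43.2, 19.5 and 44.4 CPM against 30.8, 19 and 30.2 CPM, nearly level in litter 2. The part of the digestion in the other results was not tested.

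The genes around the kinase itself had a median near 0. Of 33 actomyosin regulators 20 were positive, with a median of 0.027, and 3 had an unadjusted p under 0.05, close to the shares of all genes (51.8% and 6.35%). Ppp1r14a, an inhibitor of the myosin phosphatase that opposes Mylk, was at 48.5, 48.5 and 38.7 CPM in Mylk-shRNA and 35.4, 41.7 and 31.4 CPM in scramble-shRNA (0.33 ± 0.10, p 0.00529). Rhoc, a GTPase upstream of the Rock kinases, was at 122, 123 and 128 CPM against 108, 111 and 107 CPM with no overlap (0.20 ± 0.08). Diaph1, a formin that polymerises actin, was at 27.2, 27 and 25.9 CPM against 33.2, 31.1 and 27.5 CPM, lower without overlap (-0.20 ± 0.10). Of 20 targets of MRTF and SRF, which respond to actin polymerisation, 16 were positive with a median of 0.122, and Tgfb1i1 was the 1 with an unadjusted p under 0.05 (0.31 ± 0.13), near the 6.35% of all genes. Without the Mylk-shRNA library of litter 3 the median was -0.002 and 10 of the 20 were positive. Of 20 targets of YAP and TEAD 10 were positive, with a median of 0.011 and 1 such gene (Gadd45a, 0.26 ± 0.11).

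Among 19 Notch pathway genes 11 were positive, and 4 had an unadjusted p under 0.05 (6.35% of all genes). The ligands Dll4 and Jag2 (0.50 ± 0.22) and the glycosyltransferase Mfng, which tunes the receptors, were higher with no overlap. Mfng was at 4.68, 4.06 and 6.64 CPM against 2.93, 2.22 and 3.86 CPM (0.78 ± 0.24, p 0.0042). The receptor Notch2 was lower in each litter, at 81.3, 71.4 and 59.5 CPM against 113, 90.7 and 62 CPM (-0.32 ± 0.11, p 0.00947). Among 15 genes of the unfolded protein and integrated stress response 13 were positive, and Ddit3, a stress-induced factor, was the 1 with an unadjusted p under 0.05, at 40.2, 31.8 and 30 CPM against 27.7, 23.8 and 28.3 CPM.

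The gene with the smallest p in the comparison was Mir503hg (ENSMUSG00000087365), a long non-coding RNA. It stood at 30.9, 22.5 and 46.8 CPM in Mylk-shRNA and 19.2, 15.4 and 28.3 CPM in scramble-shRNA. It was higher in each litter, with overlap because litter 3 was the highest in both groups (0.65 ± 0.12, p 1.42e-05, edgeR adjusted p 0.235). DESeq2 gave 0.66 with an adjusted p of 0.0194. A second entry of the table carries the same symbol, so the gene was matched by its identifier. In RefSeq (GRCm38.p6) it is C430049B03Rik on chromosome X, and its span holds 3 microRNA hairpins, whose 5′ arms are shown 5′ to 3′ with the seed, bases 2 to 8, in capitals.
mmu-miR-322-5p: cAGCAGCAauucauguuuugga
mmu-miR-503-5p: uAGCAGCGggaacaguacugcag
mmu-miR-351-5p: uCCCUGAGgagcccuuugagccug
The seeds of miR-322-5p and miR-503-5p share their first 6 bases, and that of miR-351-5p is another one. Mature microRNAs have no poly(A) tail and were not measured by these libraries.

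The 10 genes of smallest p on each side were ranked among those with at least 5 CPM and the same sign in 3 litters. Predicted genes and pseudogenes were left out. Besides Mir503hg, H2-D1, Ddit4 and Egfl7, those on the higher side included Tmem150a, a membrane protein, at 26.5, 18 and 27.2 CPM against 16.9, 13.6 and 20.6 CPM (0.50 ± 0.10, p 7.08e-05), and Eno2, a glycolytic enolase, at 106, 71.7 and 70.7 CPM against 79.6, 50.9 and 44.2 CPM (0.52 ± 0.11). Nts, the precursor of neurotensin, was at 21.4, 12.4 and 22.3 CPM against 11.2, 9.2 and 11.6 CPM, with no overlap (0.78 ± 0.17). Kcne3, a potassium channel subunit and a member of the arterial and tip list, was at 11.3, 12 and 19.7 CPM against 5.5, 8.46 and 11.8 CPM (0.75 ± 0.17). The remaining ones were Snrnp48, a protein of the minor spliceosome (0.41 ± 0.10), and Zc3h7a, a zinc finger protein (0.55 ± 0.14). Zc3h7a, Snrnp48 and Mir503hg all reached their highest value in the Mylk-shRNA library of litter 3, the one that stood apart in genes detected, and without it their log2 fold changes were 0.354, 0.361 and 0.584. Among the 6 libraries Tmem150a, Nts, Kcne3 and Egfl7 also stood highest in that library.

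On the lower side Fancm, a DNA translocase of the Fanconi anaemia pathway, had the smallest p among the genes so ranked. It was at 9.45, 9.21 and 9.96 CPM in Mylk-shRNA and 14.8, 11.9 and 14.9 CPM in scramble-shRNA, with no overlap (-0.52 ± 0.13, p 0.000495). Rnf168, a ubiquitin ligase that marks DNA breaks, was at 22.7, 22.4 and 27.2 CPM against 35, 30.3 and 32.2 CPM, again with no overlap (-0.45 ± 0.11, p 0.000661). The wider Fanconi and homologous recombination list had 14 of 18 genes negative with a median of -0.102, while Fancg was higher in each litter (0.46 ± 0.17). Cdh2, or N-cadherin, which joins cells of the nephron lineage, was at 50.5, 52.7 and 33.7 CPM against 71.3, 58.5 and 48.2 CPM, lower in each litter (-0.37 ± 0.09, p 0.000709). Myo10, an unconventional myosin of filopodia, was at 62.7, 63.2 and 58.6 CPM against 99.5, 79.2 and 68.1 CPM with no overlap (-0.42 ± 0.11). Thsd4, a protein of microfibrils (-0.37 ± 0.10), the imprinted gene Peg12 (-0.34 ± 0.09), Utp14b (-0.53 ± 0.14), Saa1, an acute phase protein (-0.89 ± 0.23), Bahcc1 (-0.41 ± 0.11) and Alg10b, a glycosyltransferase (-0.33 ± 0.09), made up the 10. Elavl4, an RNA-binding protein of neurons, was at 17.7, 21.6 and 15 CPM against 26.7, 29.8 and 18 CPM (-0.46 ± 0.14). It was the 1 of 6 neuron and glia genes tested with a lower value at an unadjusted p under 0.05 (2.54% of all genes). Of these 6 genes 4 were positive, with a median of 0.115.

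The Mylk-shRNA effect in the dim cells was then set against the same effect in the bright cells. No gene differed between the fractions after adjustment (0 of 16544 genes, 0%, smallest adjusted p 0.93), and 807 (4.88%) had an unadjusted p under 0.05 (DESeq2: 536, and 0 after adjustment). In the bright cells themselves 663 genes (4.01%) had an unadjusted p under 0.05, 2.19% with higher and 1.81% with lower values. There the median over the 30 endothelial genes was -0.031, with 10 positive (51.1% of all genes) and 1 (Calcrl) at an unadjusted p under 0.05, and their summed level was 585, 789 and 668 CPM against 617, 749 and 653 CPM. The difference between the fractions, which reuses the 6 dim libraries, had a median of 0.437 over the 30 genes and was positive for 29 (51.1% of all genes). It had an unadjusted p under 0.05 with a higher value in dim cells for 9 of them (2.52% of all genes) and a lower one for 1 (2.36%). Egfl7 differed by 0.61 ± 0.19 (p 0.00482), being at 20.5, 22.9 and 29 CPM in bright Mylk-shRNA cells and 22.2, 25.9 and 27.6 CPM in bright scramble-shRNA cells. The exception was Calcrl, with 0.04 ± 0.11 in dim and 0.55 ± 0.12 in bright cells (difference -0.51 ± 0.17, p 0.00614). For the progenitor genes the difference had a median of -0.159, with 3 of 19 at an unadjusted p under 0.05 (Itga8, Spock2 and Sall1), and for the hypoxia genes 0.063, with 3 of 29 (Ankrd37, Car9 and Vegfa).

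**Figure D5:**
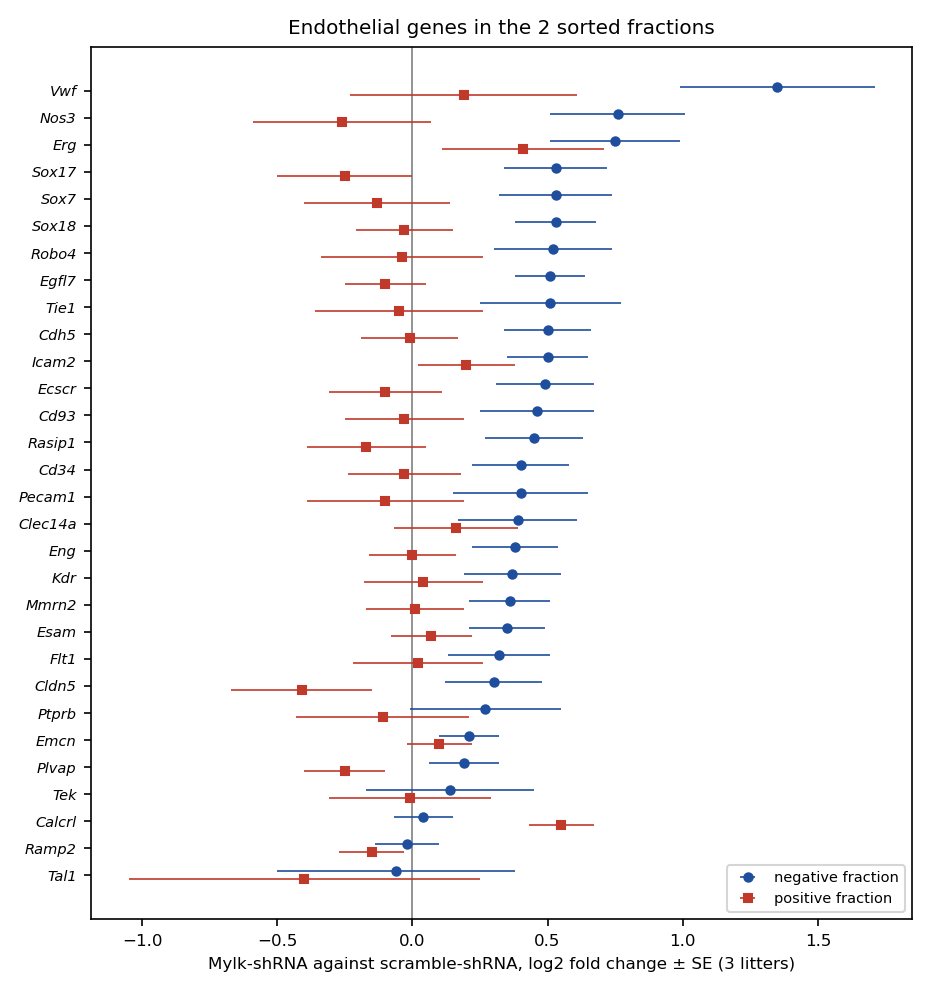
Log2 fold change of Mylk-shRNA against scramble-shRNA with its standard error for the 30 endothelial genes in the negative fraction (blue circles) and the positive fraction (red squares), 3 litters each. The blue points lie right of 0 for 28 genes and the red points for 10, and Calcrl has its red point at 0.55 and its blue point at 0.04.

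The vector against Rock1 and Rock2 gave a second set of dim cells. In a direct comparison of Mylk-shRNA with Rock1/2-shRNA in the negative fraction 0 of 16544 genes passed after adjustment (0%, smallest adjusted p 1), and 534 (3.23%) had an unadjusted p under 0.05 (DESeq2: 309). The 30 endothelial genes had a median of 0.186 with 27 positive (49.5% of all genes), and 4 with higher values had an unadjusted p under 0.05, against 2.07% of all genes, and 0 with lower values, against 1.16%. Those with higher values were Vwf (1.42 ± 0.35), Nos3, Erg and Mmrn2. The summed endothelial level in Rock1/2-shRNA was 706, 865 and 960 CPM, between the values of the other vectors in litters 1 and 3 and close to Mylk-shRNA in litter 2. The progenitor genes had a median of -0.112 with 2 of 19 positive and 0 at an unadjusted p under 0.05. The hypoxia genes had a median of -0.003, with 14 of 29 positive. The class I list likewise had a median near 0, at 0.025, with 8 of 15 positive. Its member H2-D1 stood at 62.4, 54.4 and 55.6 CPM in dim Rock1/2-shRNA cells, close to dim Mylk-shRNA cells (0.02 ± 0.09). Among single genes ranked under the same conditions as before, Dleu2, a non-coding RNA (0.55 ± 0.14), Baiap2l2 (0.50 ± 0.13), Scn7a, a sodium channel subunit (0.53 ± 0.15), Kank3 (0.38 ± 0.11) and Adpgk, a glucokinase (0.32 ± 0.09), had the smallest p on the higher side. On the lower side were the histone genes H2ac8 (-0.76 ± 0.19) and H2ac11 (-0.48 ± 0.14), whose reads may be shared with near copies, and Ids, a lysosomal sulfatase (-0.49 ± 0.13), Aar2 (-0.41 ± 0.12) and Utp14b (-0.44 ± 0.14).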

How the data were processed

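Poly(A) RNA of sorted cells was made into libraries by tagmentation, per the labels' protocols. For 78409 features the authors deposited estimated counts and CPM in each library, and 22.1 to 27.4% of nonzero counts were fractions. The submitters' processing notes name fastp 0.24.0, STAR 2.7.11, featureCounts (Subread 2.1.1) and the build GRCm39. The annotation, the strand setting and the handling of multiply mapped reads were not stated there. Each deposited CPM equals the authors' count over the library's sum.

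Counts were rounded, 92 spike-ins were left out and edgeR's filterByExpr (minimum count 10, minimum total 15) kept 16544 genes. edgeR 4.0.16 (TMM, robust quasi-likelihood, R 4.3.3) took all 18 libraries in 1 model of group plus litter (10 residual degrees of freedom, biological coefficient of variation 0.0987), and Benjamini-Hochberg adjustment was over all genes at 0.05. The pairing comes from the labels, which give kidneys of a replicate a shared litter. Libraries of the same litter correlated in their deviations from group means (r = 0.450 to 0.626 over 3 pairs of the 6 libraries, and -0.544 to 0.185 over 6 pairs of different litters). Ratios per litter used CPM plus 0.5. Alternatives were DESeq2 1.42.0, DESeq2 size factors, no filter, no litter term, TMM-scaled CPM, only the compared groups, limma 3.58.1 voom with culture as a random block, and leaving out litter 3 or each library.

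The members and gene lists were chosen with earlier results of these data known. Named genes are the targeted genes, the 10 highest and 10 lowest (5 and 5 in the other comparisons) called genes with at least 5 CPM and the same sign in 3 litters, filled by smallest p, without predicted genes and pseudogenes, the 4 members of smallest p of each list, and any member of the endothelial, progenitor, bud tip, stromal and smooth muscle lists. Egln3 and Car9 of the hypoxia list were named outside this rule, for their large values. Lists not described in the text are plotted with the others, except the sex-linked list. Its 5 tested genes had litter medians of -0.35, -0.02 and 0.75.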

Additional observations from a re-analysis of the deposited data

Results flagged for a closer look

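Of the 16544 genes tested, 599 (3.62%) had the opposite sign of the Mylk-shRNA effect in dim and in bright cells in every litter. The 12 named here are those among the 118 genes examined singly, some of which were chosen for a small p of this very difference. The test of the difference between the fractions itself passed for none of them after adjustment (edgeR, adjusted p 0.93 for each named here). The difference, dim minus bright in log2, was 0.64 for Tmem150a, 0.78 for Gpihbp1, 0.44 for Ppp1r14a, 0.49 for Gadd45a, 1.20 for Zfp57, an imprinting factor, 0.66 for Ttc14 and 0.62 for Dleu2. It was -0.55 for Thsd4, -0.89 for Zfp738, -0.45 for Dcaf7, -0.57 for Epn2 and -0.84 for Dnajb5. In litter 3 of the dim cells Epn2 stood at 32.1 CPM in both groups, so that its sign there rests on digits beyond those printed. Zfp57 stood at 8.56, 6.39 and 14.6 CPM in dim Mylk-shRNA cells and 5.41, 5.34 and 4.88 CPM in dim scramble-shRNA cells, with 5.8, 7.15 and 9.02 CPM against 11.4, 7.73 and 9.2 CPM in bright cells.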

How the results depend on the processing

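Under 13 alternative fits the medians of 18 of the 39 lists kept their sign, among them endothelium, progenitors, hypoxia and replication, and those of 21 changed it at least once, among them smooth muscle, MRTF and SRF targets, macrophage, erythroid, proximal tubule, early nephron and ureteric trunk. Without the replicate block (litter) the genes at an unadjusted p under 0.05 were 285 in dim cells, 217 for the difference between fractions, 121 against Rock1/2-shRNA and 258 in bright cells. Without a filter on low counts they were 1842, 1605, 1132 and 1252, with 9, 1, 5 and 0 genes called after adjustment. The 9 in dim cells included Mir503hg (0.606) and Nts (0.736), and H2ac8 (-0.774) and H2ac11 (-0.508) were among the 5. DESeq2 called 1 gene in dim cells, Mir503hg (0.656), and gave 536, 309 and 426 genes at an unadjusted p under 0.05 in the other comparisons. With only the compared groups fitted, the bright cells gave 6 calls and 1106 such genes. Leaving out single libraries gave 722 to 1520 genes in dim cells, 519 to 1323 for the difference, 415 to 1250 against Rock1/2-shRNA and 488 to 894 in bright cells, and 0 calls. List medians then ran from 0.317 to 0.640 (endothelium), -0.344 to -0.093 (progenitors), -0.254 to -0.113 (bud tip), -0.185 to -0.068 (replication), 0.046 to 0.341 (immediate early), 0.007 to 0.229 (class I) and 0.069 to 0.149 (hypoxia). Without a filter bud tip was -0.265 and replication -0.183, and without litter 3 hypoxia was 0.159. Signs turned in 6 genes when single libraries were left out. Mylk ran from -0.026 (without Mylk-shRNA litter 3) to 0.173, Rock2 from -0.077 (without Mylk-shRNA litter 3) to 0.234 with -0.119 without litter 3, Calcrl from -0.034 to 0.097, Acta2 from -0.144 to 0.436, Foxd1 from -0.046 to 0.171 with -0.001 without litter 3, and Xist from -0.255 to 1.138. The cause was not tested. The shallow libraries of litter 3 limit what can be said of scarce genes such as Vwf and Psmb9.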
